A study of Mus musculus with 24 samples.

Results

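The Rab genes encode the largest branch of the Ras superfamily of small GTPases. They were taken as every gene whose symbol on the array is Rab followed by a digit, with or without a letter. Of 52 such genes, 38 were detected and tested, among 8622 genes tested in all. They were followed in RAW264.7, an immortalised line of mouse macrophages, at 1, 2 and 4 h in untreated cells and in cells given LPS at 100 ng/ml (a ligand of TLR4), 1 μM P3C (the lipopeptide Pam3CSK4, a ligand of TLR2) or 1 μM R848 (a ligand of TLR7). Each of the 12 groups of treatment and time had 2 arrays, A and B, which the methods describe as duplicate biological samples. All groups share this 1 line, and the labels name no genetic change.

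A Rab protein cycles between a GTP-bound form, which sits on a membrane and recruits effectors, and a GDP-bound form held in the cytosol. Exchange factors load GTP, GTPase-activating proteins end the active state, and the prenylation machinery and GDP dissociation inhibitors move Rab proteins on and off membranes. Each Rab marks its own compartment, so the set of Rab proteins in a macrophage bears on phagosome maturation, on the delivery and degradation of Toll-like receptors and on cytokine secretion.

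RefSeq promoters, 250 bases before to 50 bases after each start (GRCm38.p6), were found for 42 of the 52 genes and 32 of the 38 tested. Rab3d and Rab40c are shown because they had the largest rise and the largest fall. Rab19 is shown for its pairs of GAAA, and was called with LPS alone, as were Rab2a, Rab8b, Rab12, Rab21, Rab31 and Rab34. Rab21 and Rab24 are shown because they share a motif and moved in opposite directions. Capitals mark the GC box (GGGCGG) in Rab3d and Rab40c and the CCAAT box (CCAAT) in Rab40c, since Rab3d held no CCAAT box. They also mark pairs of GAAA separated by any 2 bases in Rab19, and TCACGTGA in Rab21 and Rab24. All motifs were searched on both strands, and matches may overlap.

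Rab3d, chr9:21918134-21918433, minus strand: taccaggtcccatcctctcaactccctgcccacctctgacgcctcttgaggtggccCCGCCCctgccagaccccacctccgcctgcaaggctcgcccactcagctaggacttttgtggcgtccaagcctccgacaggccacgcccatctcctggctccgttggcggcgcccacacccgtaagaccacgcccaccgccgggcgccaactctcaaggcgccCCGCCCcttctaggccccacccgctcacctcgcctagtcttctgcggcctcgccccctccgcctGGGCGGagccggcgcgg
Rab40c, chr17:25919665-25919964, minus strand: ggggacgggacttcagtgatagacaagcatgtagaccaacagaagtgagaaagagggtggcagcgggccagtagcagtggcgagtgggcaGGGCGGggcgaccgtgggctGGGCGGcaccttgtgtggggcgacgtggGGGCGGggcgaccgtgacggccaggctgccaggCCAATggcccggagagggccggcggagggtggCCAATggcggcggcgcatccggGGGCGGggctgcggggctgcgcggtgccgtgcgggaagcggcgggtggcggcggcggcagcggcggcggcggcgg
Rab19, chr6:39381103-39381402, plus strand: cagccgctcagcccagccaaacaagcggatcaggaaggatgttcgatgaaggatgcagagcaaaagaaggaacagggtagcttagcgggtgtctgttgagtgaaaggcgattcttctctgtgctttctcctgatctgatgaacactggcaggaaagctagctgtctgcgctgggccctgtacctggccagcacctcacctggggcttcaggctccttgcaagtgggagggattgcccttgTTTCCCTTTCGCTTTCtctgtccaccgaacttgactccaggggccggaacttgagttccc
Rab21, chr10:115315542-115315841, minus strand: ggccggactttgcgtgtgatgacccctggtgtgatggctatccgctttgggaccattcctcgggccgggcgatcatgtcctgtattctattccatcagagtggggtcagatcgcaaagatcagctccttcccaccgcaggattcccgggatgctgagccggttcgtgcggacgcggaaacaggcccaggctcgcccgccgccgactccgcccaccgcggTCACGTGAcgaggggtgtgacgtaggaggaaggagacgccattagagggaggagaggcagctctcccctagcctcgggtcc
Rab24, chr13:55321931-55322230, minus strand: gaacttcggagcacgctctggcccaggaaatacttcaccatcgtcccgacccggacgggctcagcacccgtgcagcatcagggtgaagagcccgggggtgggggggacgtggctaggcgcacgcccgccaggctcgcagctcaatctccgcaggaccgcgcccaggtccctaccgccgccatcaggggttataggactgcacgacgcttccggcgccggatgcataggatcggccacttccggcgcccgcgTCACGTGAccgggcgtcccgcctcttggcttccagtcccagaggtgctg

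The paired GAAA, the core of interferon-stimulated response elements, occurred in 3.44% of all 32851 promoters and in 1 of the 40 promoters of tested Rab genes, that of Rab19. It occurred there as 2 overlapping matches on the strand opposite to the gene, the first starting 10 bases before the start. TCACGTGA, which holds the E-box CACGTG and is the core of the element named CLEAR, occurred in 0.974% of all promoters and in those of Rab5a, Rab21 and Rab24. The GC box occurred in 27 of the 40 promoters and in 35.7% of all promoters, with 3 matches in Rab3d and 4 in Rab40c, and the CCAAT box in 19 of the 40 and in 37.4% of all promoters. The κB site by its name was matched in Rab28 (4.51% of all promoters), and the AP-1 site TGANTCA in Rab34 (7.81%). These are matches of letters and were not tied to the signals by any test.

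The arrays had median signals of 95.8 to 115.1 and 12299 to 13917 probes with a detection p under 0.01, and their number limits the precision. All 8 macrophage markers listed were detected, and none of the 16 markers of T cells, B cells, fibroblasts, epithelium and dendritic cells was, of which 7 had a probe with that name. Tnf rose with each ligand at each time, by 3.01 to 4.61 (log2). Levels are log2 signals after quantile normalization over the 24 arrays, and differences between groups are on the same scale. Calls were made in limma where the adjusted p was under 0.05, and n is 2 arrays per group throughout. There were 10 slides, none of which held both a treated array and the untreated array of the same time. The level of bulk RNA does not separate a change in all cells from a change in some of them.

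Of the 52 genes, 14 were detected in no group: Rab5b, Rab15, Rab17, Rab20, Rab23, Rab25, Rab26, Rab36, Rab37, Rab39, Rab39b, Rab40b, Rab42 and Rab44. All 38 others were detected in at least 1 untreated group, and 28 in all 12 groups. For 23 of them 1 probe was detected, and for the rest the brightest probe was used. Among the 23 were Rab2a, Rab3d, Rab12, Rab21, Rab27a, Rab31 and Rab40c, whose differences below could not be checked on another probe. Rab1 and Rab6 are names of the probe table that were kept apart from Rab1a and Rab6a. RefSeq gives Rab6 as a synonym of Rab6a, and Rab1 as a synonym of both Rab1a and Rnase4.

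Compared with untreated cells of the same time, 14 of the 38 Rab genes were called with at least 1 ligand at 1 or more times (36.8%, beside 31.5% of all genes), and 24 were not called. Of the 43 calls 34 were lower (79.1%, beside 52.1% of the 7257 calls over all genes). Rab40c gave 9 of these falls, and without it 73.5% were lower. A call is 1 gene in 1 comparison, so these calls are not independent. A gene can recur, and the ligands of a time share their untreated arrays. Counted by gene, all 14 were called with LPS at 4 h, 5 higher and 9 lower, beside 934 and 1377 of all genes. Rab40c fell with all ligands at all times, and Rab3d rose with LPS at 2 and 4 h and with P3C and R848 at 4 h. Rab7b, Rab24, Rab27a and Rab3a fell with all ligands at 4 h. Rab2a, Rab12, Rab19, Rab21, Rab31 and Rab34 were called with LPS at 4 h and in no other of the 9 comparisons.

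**Figure D1:**
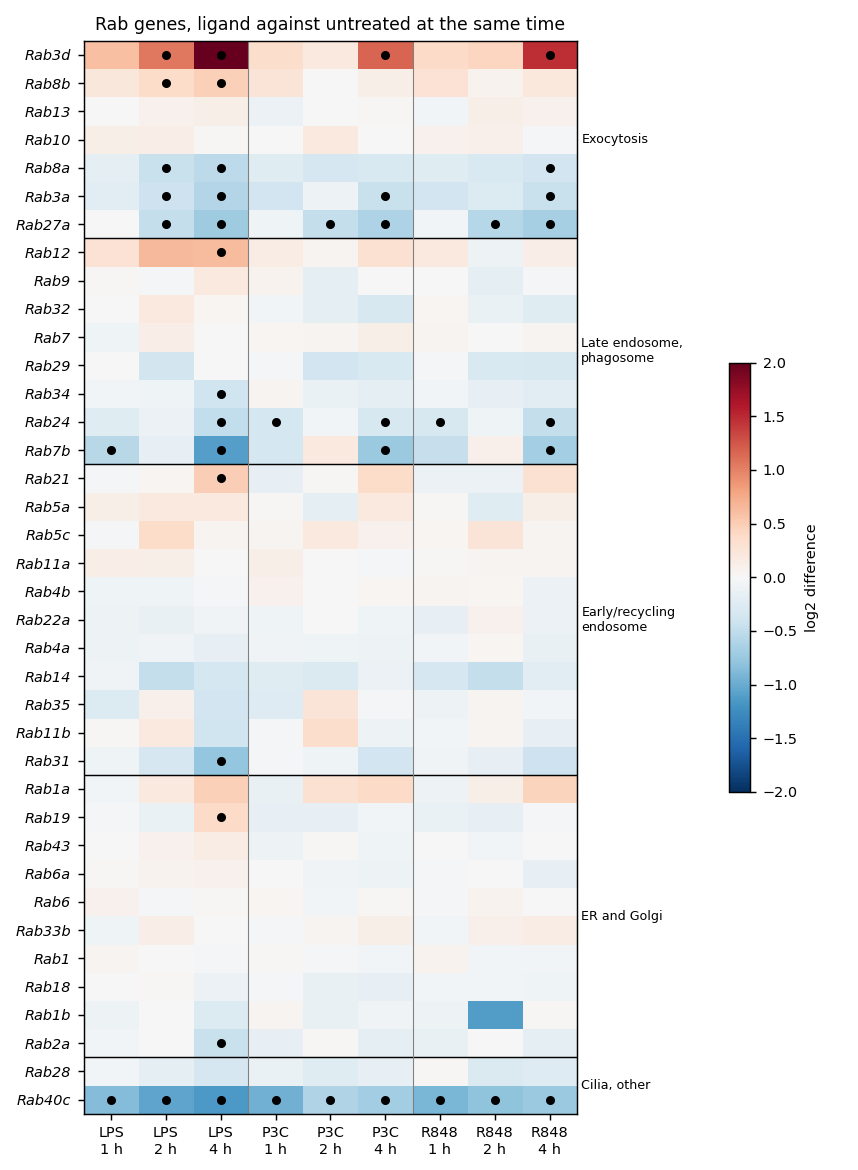
Log2 differences of the 38 tested Rab genes (rows, grouped by role) between each ligand and untreated cells of the same time (columns), from −2 in blue to 2 in red, with a dot where the adjusted p was under 0.05 (2 arrays per group). Rab40c is dotted in all 9 columns, and the LPS 4 h column holds 14 dots.

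With LPS, no Rab gene was called higher and 2 lower at 1 h, where 2.1% and 1.41% of all genes tested were called higher and lower. At 2 h 2 were higher and 4 lower (5.52% and 6.33% of all genes), and at 4 h 5 were higher and 9 lower (10.8% and 16%). With P3C, none was higher and 2 were lower at 1 h (1.73% and 1.29% of all genes), none and 2 at 2 h (3.07% and 2.41%), and 1 and 5 at 4 h (5.4% and 5.43%). With R848, none was higher and 2 were lower at 1 h (2.03% and 1.38%), none and 2 at 2 h (3.34% and 3.24%), and 1 and 6 at 4 h (6.3% and 6.38%). The 14 genes called with LPS at 4 h were 36.8% of the Rab genes, beside 26.8% of all genes. The median difference at that time was −0.01 over the Rab genes and −0.06 over all genes, and the median size regardless of sign was 0.31 and 0.19.

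**Figure D2:**
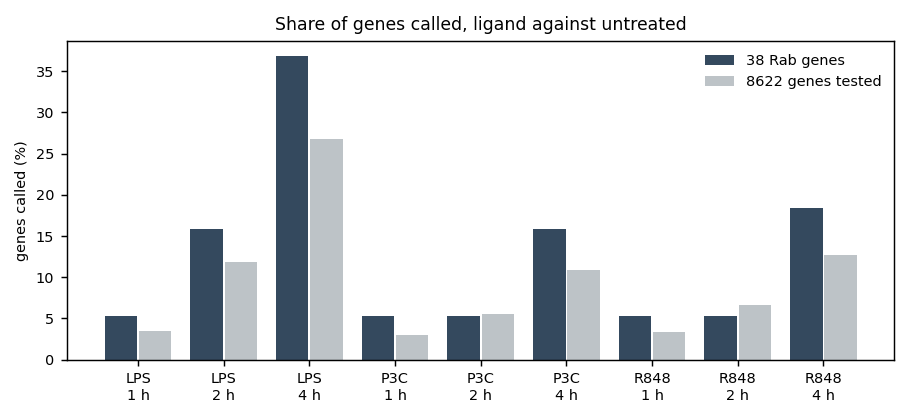
Percent of the 38 Rab genes (dark bars) and of the 8622 genes tested (light bars) called in either direction for each ligand and time against untreated cells. The Rab share was 36.8% and the share of all genes 26.8% with LPS at 4 h, and the shares were 5.26% and 6.58% with R848 at 2 h.

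The scaling of the arrays changed these counts. When each array was scaled by its median signal instead, the median of all genes with LPS at 4 h moved to −0.33, and 1 Rab gene was called higher and 7 lower. Those 8 were Rab3d, Rab40c, Rab7b, Rab27a, Rab24, Rab2a, Rab3a and, newly, Rab14. Rab31, Rab34 and Rab8a were not called, although their differences were larger in size, at −1.09, −0.83 and −0.84 (adjusted p = 0.105, 0.1 and 0.0626), or −0.76, −0.50 and −0.51 relative to all genes. No Rab gene was then called at 1 h with any ligand. All 14 genes kept their direction at 4 h of LPS, but Rab12, Rab19, Rab21 and Rab8b differed by only 0.26, 0.20, 0.03 and 0.14. None of these was called in limma (adjusted p = 0.464, 0.147, 0.932 and 0.761). Relative to all genes they were 0.59, 0.53, 0.36 and 0.47, which was not tested, so the rises of these genes depend on the scaling. Each LPS 4 h array was also set against the untreated 2 h array of its own slide, and all 14 genes kept their direction on both slides. They had been called from these same LPS arrays, so a kept direction is weak evidence. Rab11b (−0.36 and −0.17), Rab14 (−0.28 and −0.38) and Rab1a (0.13 and 0.09), which were not called, kept theirs too. The mean difference moved by more than the spread between replicates for 5 of the 14 genes. It moved to −0.86 for Rab7b, −0.62 for Rab31, 0.40 for Rab8b, −0.31 for Rab34 and −0.22 for Rab24, whose fall as reported was 0.49.

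The genes of exocytosis and secretory granules held 7 tested members. Of these 2 rose and 3 fell with LPS at 4 h, where 10.8% and 16% of all genes did. Rab3d, which sits on secretory granules and takes part in regulated exocytosis, gave the largest difference of any Rab gene. It read 9.45 and 9.62 in untreated cells at 4 h, and LPS gave 11.66 and 11.41, P3C 10.85 and 10.56, and R848 11.32 and 10.69. Every treated array lay above both untreated arrays, and those of LPS lay highest. Its rise at 4 h was 2.00 (log2) with LPS (SE 0.194, adjusted p = 1.37e-06), 1.17 with P3C (SE 0.194, adjusted p = 0.000778) and 1.47 with R848 (SE 0.194, adjusted p = 8.06e-05). On the linear scale these were 4.00-, 2.25- and 2.77-fold. At 2 h its arrays read 9.34 and 9.23 untreated and 10.16 and 10.52 with LPS, a rise of 1.05 (SE 0.194, adjusted p = 0.00178). The differences at 2 h with P3C and R848 were 0.19 and 0.43, and those at 1 h were 0.60 with LPS, 0.35 with P3C and 0.39 with R848, none of them called. On the same slide as untreated 2 h cells, LPS at 4 h was higher by 2.32 on replicate A and by 2.18 on replicate B.

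Rab3a, the synaptic vesicle member of the same subfamily, moved the other way. It read 7.39 on both untreated arrays at 4 h and 6.81 and 6.83 with LPS, where it was no longer detected on either array. The fall was 0.58 on the log2 scale as measured, and at least 1.39-fold when the arrays with LPS were set at the level where probes pass detection (adjusted p = 0.000521). With P3C at 4 h its arrays read 6.92 and 6.98, and with R848 6.89 and 7.02, both below the untreated arrays, with falls of 0.44 (adjusted p = 0.00878 and 0.00865). At 2 h it was called with LPS only (fell by 0.41, adjusted p = 0.0142), and the arrays read 7.08 and 6.90 against 7.43 and 7.36. A dimmer probe of Rab3a, detected in 1 group, fell by 0.14 with LPS at 4 h and was not called (adjusted p = 0.0835), nor was it with P3C or R848 (−0.17 each), so the fall rests on 1 probe. With 1 array left out the fall with LPS at 4 h kept its call throughout, at 0.57 to 0.59. The calls with P3C and R848 at 4 h ended without either untreated array (−0.44) or without array A of the ligand (−0.41 and −0.37), and that with LPS at 2 h without untreated array A (−0.38) or LPS array B (−0.32).

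Rab27a, which docks secretory lysosomes and exosome-bearing compartments at the plasma membrane, fell from 2 h on. At 1 h its treated arrays (7.63 to 7.86) lay among the untreated ones (7.69 and 7.89). At 2 h LPS gave 7.24 and 7.56, P3C 7.35 and 7.49 and R848 7.26 and 7.38, below 7.76 and 8.02 in untreated cells. The falls at 2 h were 0.48, 0.47 and 0.57, and at 4 h 0.71, 0.62 and 0.67 (SE 0.125 each, adjusted p = 0.000538, 0.00345 and 0.00174 at 4 h). At 4 h no treated array exceeded 7.21 and no untreated array was under 7.71. The calls at 2 h ended for all ligands without untreated array B (−0.35, −0.34 and −0.44) or when array A of the treated group was dropped (−0.32, −0.40 and −0.51). With P3C, the 2 h call was lost on dropping array B (−0.54) too, and the 4 h call on dropping untreated array A (−0.53). Those with LPS and R848 at 4 h kept their calls with any 1 array left out. Rab27a was the 1 Rab gene called with LPS at 2 h, R848 at 2 h and P3C at 4 h when arrays were scaled by their medians.

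Rab8a and Rab8b, close paralogs in transport from the Golgi and recycling compartments to the plasma membrane, were called in opposite directions with LPS. In macrophages Rab8a is known for recruiting a phosphoinositide 3-kinase below Toll-like receptors. Rab8b read 11.16 and 11.29 with LPS at 4 h against 10.70 and 10.80 in untreated cells, and rose by 0.48 (SE 0.0775, adjusted p = 0.000244). It had risen by 0.37 at 2 h (adjusted p = 0.00476), with arrays of 11.23 and 11.16 against 10.77 and 10.88. Its other probe rose by 0.76 at 4 h (adjusted p = 0.000546) and gave 0.38 at 2 h without a call (adjusted p = 0.0937). Rab8a read 10.69 and 10.48 with LPS at 4 h against 10.97 and 11.24, and fell by 0.52 (SE 0.112, adjusted p = 0.00249), after a fall of 0.45 at 2 h (adjusted p = 0.0143). With R848 at 4 h it fell by 0.38 (adjusted p = 0.0354), and its arrays read 10.65 and 10.80. The other probe of Rab8a fell by 0.16 with LPS at 4 h and was not called (adjusted p = 0.318), so the fall of Rab8a was not called on both of its probes. Without untreated array B the falls of Rab8a at 4 h were 0.38 with LPS and 0.24 with R848, neither called, and that with R848 also ended without its array A (−0.31) or B (−0.45). The calls at 2 h with LPS ended without array A of untreated or LPS cells, with −0.37 and −0.42 for Rab8a and 0.31 and 0.34 for Rab8b, while Rab8b at 4 h kept its call with any 1 array left out. Rab10, which carries newly made TLR4 to the surface, and Rab13, of tight junctions and the actin cortex, were not called, with differences of −0.02 to 0.19 and −0.11 to 0.12 over the 9 comparisons.

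**Figure D3:**
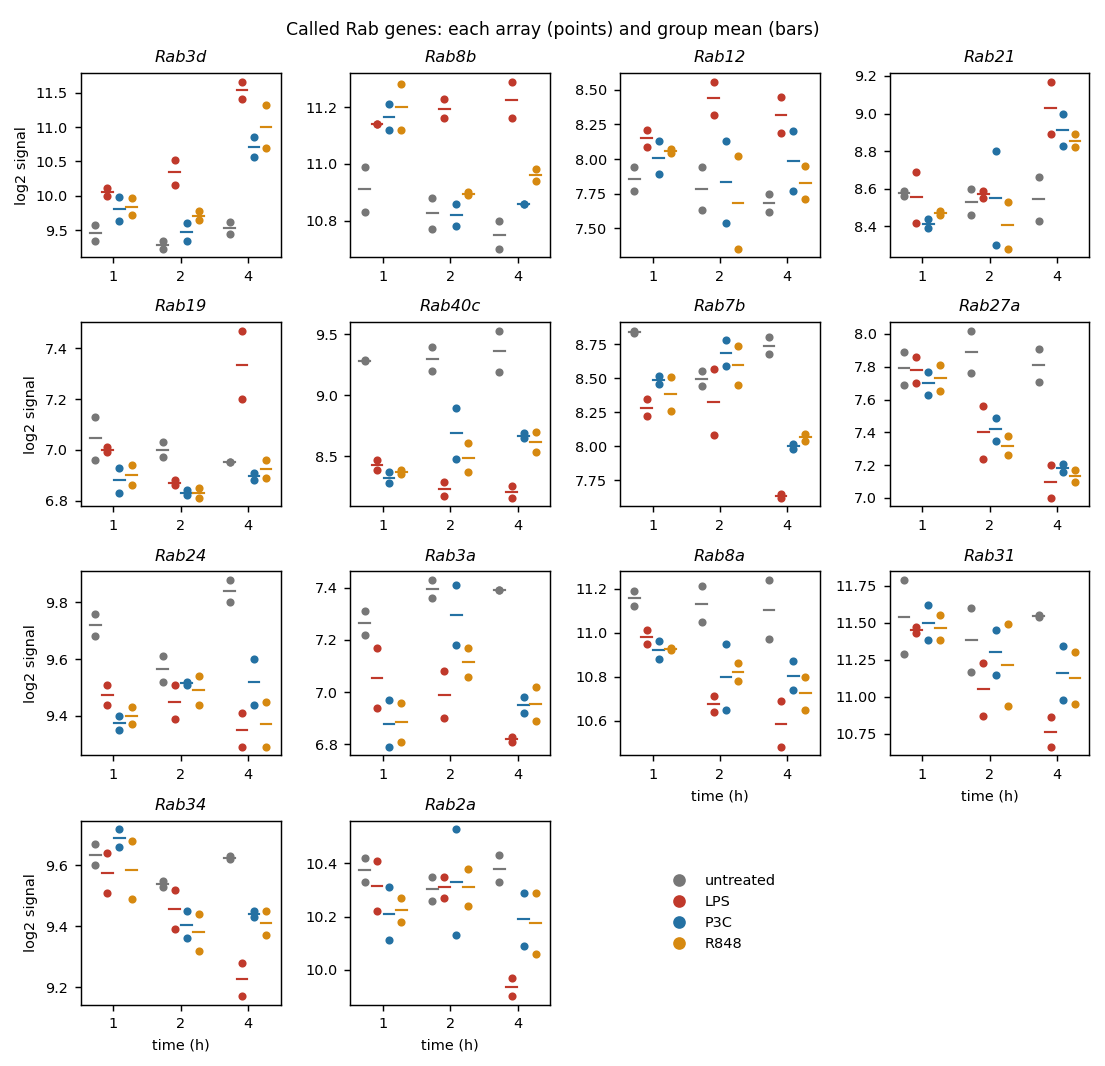
Log2 signal (y axis, a separate range in each panel) on every array for the 14 called Rab genes at 1, 2 and 4 h, with points for the 2 arrays of a group, a bar for their mean, and colours for untreated, LPS, P3C and R848. The highest treated array of Rab40c (8.90) lies under its lowest untreated array (9.19), and Rab3d with LPS at 4 h lies at 11.41 and 11.66.

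The genes of late endosomes, phagosomes and lysosome-related organelles held 8 tested members. Of these 1 rose and 3 fell with LPS at 4 h, where 10.8% and 16% of all genes did. Rab7b, which in macrophages is known to send TLR4 and TLR9 toward lysosomal degradation, read 7.65 and 7.62 on the LPS arrays, 7.98 and 8.02 on those of P3C and 8.09 and 8.04 on those of R848 at 4 h. The untreated arrays read 8.68 and 8.80, above all of these. The falls were 1.10 with LPS (SE 0.135, adjusted p = 1.53e-05), 0.74 with P3C (adjusted p = 0.00172) and 0.68 with R848 (adjusted p = 0.00297). Its other probe fell by 0.60, 0.51 and 0.49, all called, and at 1 h with LPS gave −0.28 without a call. The course over time was not a steady fall. At 1 h LPS gave 8.35 and 8.22 against 8.85 and 8.83, a fall of 0.56 (adjusted p = 0.0301), while at 2 h the differences were −0.17, 0.19 and 0.10 with LPS, P3C and R848, none called. Untreated cells themselves read 8.44 and 8.55 at 2 h, below their 1 and 4 h arrays. The calls at 4 h held with any 1 array left out, and that at 1 h ended without any 1 of the 4 arrays (−0.63 to −0.49).

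Rab24, an atypical Rab tied to autophagy, read 9.41 and 9.29 on the LPS arrays, 9.60 and 9.44 on those of P3C and 9.29 and 9.45 on those of R848 at 4 h, against 9.88 and 9.80 in untreated cells. It fell by 0.49 (SE 0.0801, adjusted p = 0.000283), 0.32 (adjusted p = 0.016) and 0.47 (adjusted p = 0.000779). With LPS both of its other probes also fell, by 0.41 and 0.52, and were called. With R848 1 of them was called (fell by 0.38) and the other was not (−0.34, adjusted p = 0.177), and with P3C neither was (−0.30 and −0.23, adjusted p = 0.0614 and 0.439). It was called at 1 h with P3C (fell by 0.35) and R848 (fell by 0.32) but at 2 h with none, where the differences were −0.11, −0.05 and −0.08. The untreated arrays at 2 h (9.61 and 9.52) were again the lowest of the untreated ones. At 1 h 1 other probe was called with P3C (fell by 0.45), the second was not (−0.44), and with R848 neither was (−0.28 and −0.27, adjusted p = 0.185 and 0.561). The calls at 1 h ended when any 1 of the 4 arrays compared was left out (−0.39 to −0.30 with P3C, −0.36 to −0.28 with R848), and that with P3C at 4 h ended without untreated array A (−0.28) or P3C array B (−0.24).

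Rab34, of lysosome positioning and phagosome maturation, read 9.28 and 9.17 with LPS at 4 h against 9.62 and 9.63 in untreated cells, a fall of 0.40 (SE 0.0799, adjusted p = 0.00151). Its other probes fell by 0.30 and 0.18 without a call. Rab12, which directs the transferrin receptor to degradation, read 8.45 and 8.19 with LPS at 4 h against 7.62 and 7.75. Its rise of 0.64 (SE 0.222, adjusted p = 0.0458) lay close to the threshold and ended without any 1 of the 4 arrays (0.50 to 0.77). At 2 h the difference was 0.65, with 8.32 and 8.56 against 7.94 and 7.63, and was not called (adjusted p = 0.0735). Rab7, the main Rab of late endosomes, differed by −0.08 to 0.13 in the 9 comparisons. With LPS at 4 h it read 10.67 and 10.43 against 10.51 and 10.56, a difference of 0.01 with a 95% interval of −0.65 to 0.67. Its other probes gave 0.46 and 0.48 there and as low as −0.28 and −0.56 with R848 at 2 h, none called. Rab9, Rab29 and Rab32, which serve late endosomes and lysosome-related organelles, differed by −0.39 to 0.20 and were not called.

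The genes of early and recycling endosomes held 11 tested members. Of these 1 rose and 1 fell with LPS at 4 h, where 10.8% and 16% of all genes did. Rab21, a regulator of integrin uptake, read 9.17 and 8.89 with LPS against 8.43 and 8.66 in untreated cells, and rose by 0.49 (SE 0.146, adjusted p = 0.0216). The P3C (9.0 and 8.83) and R848 (8.89 and 8.82) arrays also lay above the untreated ones, but those differences of 0.37 and 0.31 were not called. Rab31, which moves cargo between the Golgi and endosomes, read 10.86 and 10.66 with LPS against 11.55 and 11.54, and fell by 0.78 (SE 0.218, adjusted p = 0.0144). The P3C arrays at 4 h read 10.98 and 11.34 and those of R848 10.95 and 11.30, and the differences of −0.39 and −0.42 were not called. The call of Rab21 ended without untreated array A (0.38) or LPS array A (0.35), and that of Rab31 without either untreated array (−0.78) or LPS array B (−0.68).

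The Rab genes that define early and recycling endosomes were not called on their brightest probes. Rab5a and Rab5c, of early endosomes, differed by −0.24 to 0.19 and by −0.02 to 0.36 in the 9 comparisons. The probes of Rab5a differed in their call, since its dimmer probe, detected in all 12 groups, was higher with LPS by 0.36 at 4 h (adjusted p = 0.0276), where the brightest gave 0.19, and by 0.35 at 2 h without a call (adjusted p = 0.0582). Of the 8 uncalled Rab genes with another detected probe, Rab5a was the 1 with a call on it. Rab4a, Rab4b and Rab11a, of recycling endosomes, stayed within −0.16 to 0.14, Rab22a within −0.16 to 0.09 and Rab35, of fast recycling, within −0.39 to 0.26. Rab4a, Rab22a and Rab11a lay near background, detected on both arrays in 5, 6 and 10 of the 12 groups. A fall of these 3 genes could therefore be missed. Rab11b read 11.50 and 11.20 with LPS at 4 h against 11.65 and 11.86, a difference of −0.40 that lay just outside the threshold (adjusted p = 0.0525). Rab14 differed by −0.48 to −0.07 with a wide spread between the A and B arrays at 2 h, where LPS, P3C and R848 gave 10.33, 10.49 and 10.28 on A and 11.0, 11.21 and 11.05 on B. Rab5a showed the same split with P3C (8.70 and 9.12) and R848 (8.48 and 9.25). The A arrays of P3C and R848 at 2 h shared 1 slide and the B arrays another, and the part of the slide in this spread was not tested.

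The genes of the endoplasmic reticulum and Golgi held 10 tested members. Of these 1 rose and 1 fell with LPS at 4 h, where 10.8% and 16% of all genes did. Rab2a, of transport between the endoplasmic reticulum and the Golgi, read 9.97 and 9.90 with LPS against 10.33 and 10.43, and fell by 0.44 (SE 0.125, adjusted p = 0.0156), a call that ended without untreated array B (−0.39) or LPS array B (−0.41). Rab19, a little-studied Golgi-associated Rab, read 7.20 and 7.47 with LPS at 4 h and 6.95 on both untreated arrays. It rose by 0.38 (SE 0.0808, adjusted p = 0.00218), and its dimmer probe, detected in 1 group, rose by 0.20 (adjusted p = 0.0442). Without LPS array B the rise was 0.25 and was still called. On the P3C (6.88 and 6.91) and R848 (6.89 and 6.96) arrays at 4 h it was detected on 1 of 2, and it was detected on none of the ligand arrays at 2 h. It was detected on both arrays in 5 of the 12 groups, those of untreated cells and of LPS at 1 and 4 h. Its promoter is the 1 among those of the tested Rab genes with the paired GAAA shown above (2.5%, beside 3.44% of all promoters). Whether the motif bears on its level was not tested.

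Rab1a, which acts with Rab1b at the first step of Golgi transport, differed by 0.47 with LPS at 4 h (95% interval −0.07 to 1.02) and was not called. Rab1b gave the largest difference without a call, −1.11 with R848 at 2 h (adjusted p = 0.126). This came from 1 array, which read 7.41, while the other array of the group read 9.42 and all other arrays 9.30 to 9.86, and the other probe of Rab1b differed by −0.14. Rab1, Rab6, Rab6a, Rab18, Rab33b and Rab43 stayed within −0.16 to 0.15. Of these, Rab1, Rab6 and Rab43 lay near background, detected on both arrays in 1, 8 and 5 of the 12 groups, so a fall could be missed.

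Rab40c, an unusual Rab whose SOCS box links it to a cullin ubiquitin ligase, fell as early as 1 h and in all 9 comparisons. Its 6 untreated arrays ran from 9.19 over a median of 9.29 to 9.53, and its 18 treated arrays from 8.16 over a median of 8.39 to 8.90. No treated array reached the untreated range at any time. At 1 h LPS gave 8.47 and 8.39, P3C 8.37 and 8.28 and R848 8.36 and 8.39, against 9.28 and 9.29. The falls at 1 h were 0.86, 0.96 and 0.91 (SE 0.132 each, adjusted p = 0.000862, 0.000367 and 0.000533). With LPS the fall was 1.06 at 2 h and 1.15 at 4 h, to 0.449 of the untreated signal (adjusted p = 7.81e-06). With P3C it was 0.60 and 0.69, and with R848 0.81 and 0.74. Of these calls those with P3C ended, at 2 h without untreated array A (−0.50) or P3C array A (−0.39) and at 4 h without untreated array B (−0.52), and the others held with any 1 array left out. Under median scaling its differences stayed at −1.58 to −0.60, but it was called with LPS at 4 h only. Rab28, the other tested gene of cilia and other sites, differed by −0.34 to 0.03 and was not called.

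**Figure D4:**
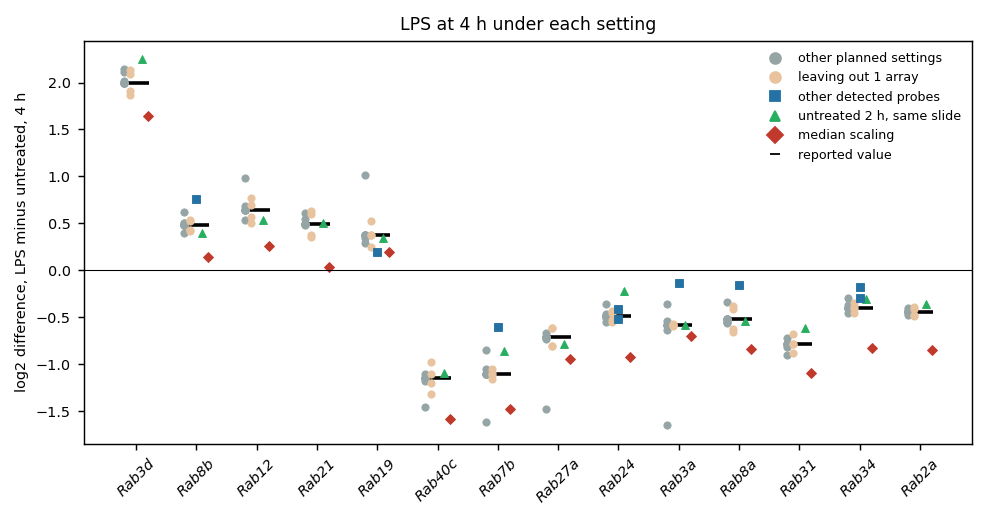
Log2 difference between LPS and untreated cells at 4 h for the 14 called Rab genes (x axis) as reported (black bars), under each other processing setting, with 1 array left out, on other detected probes, against the untreated 2 h array of the same slide, and under median scaling (red). No point crosses 0, and the red points of Rab21 (0.03), Rab8b (0.14) and Rab19 (0.20) lie close to it.

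The ligands were compared with each other at 4 h. With LPS against P3C 3 Rab genes were higher and none lower, where 4.08% and 1.73% of all genes were called, and with LPS against R848 1 was higher and none lower (3.46% and 1.23%). Rab19 was higher with LPS than with P3C by 0.44 (SE 0.0808, adjusted p = 0.00265) and than with R848 by 0.41 (adjusted p = 0.00528). Rab3d was higher with LPS than with P3C by 0.83 (SE 0.194, adjusted p = 0.0168), and than with R848 by 0.53 without a call (adjusted p = 0.175). Rab8b was higher with LPS than with P3C by 0.37 (SE 0.0775, adjusted p = 0.00842). None of these was called under median scaling. Without LPS array B the differences of Rab19 were 0.31 and 0.28 and that of Rab8b 0.30, and without LPS array A that of Rab3d was 0.71, none of them called. Calls were also lost without P3C array B for Rab3d (0.69), without either P3C array for Rab8b (0.37 and 0.36) and without R848 array A for Rab19 against R848 (0.38). No Rab gene was called between R848 and P3C in limma, with none at an unadjusted p under 0.05 and 0% of all genes called. For Rab3d that difference was 0.30, with a 95% interval of −0.11 to 0.71.

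With the slide as a random block, LPS differed from P3C in 13 Rab genes (34.2%) and from R848 in 12 (31.6%), where 18.7% and 18.2% of all genes were called. They included all the genes above, and Rab40c was then lower with LPS than with P3C by 0.51 (adjusted p = 0.00155) and than with R848 by 0.45 (adjusted p = 0.0041). Rab31 was lower with LPS by 0.60 and 0.57, and Rab7b by 0.35 and 0.41. Genes not called against untreated cells were among them. Rab32 (0.46 and 0.40), Rab29 (0.41 and 0.42) and Rab9 (0.24 and 0.25) were called higher with LPS. Rab35 (−0.51 and −0.48) and Rab11b (−0.45 and −0.40) were called lower. The B arrays of all ligands at 4 h shared 1 slide. On it LPS exceeded P3C and R848 by 0.85 and 0.72 for Rab3d, by 0.56 and 0.51 for Rab19 and by 0.44 and 0.35 for Rab8b, and lay below them by 0.43 and 0.44 for Rab40c and by 0.68 and 0.64 for Rab31.

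The response at 4 h was also compared with that at 1 h. With LPS 3 Rab genes were called, where 10% of all genes were, and with R848 1 was called (3.54% of all genes). The response of Rab3d to LPS grew by 1.40 (SE 0.275, adjusted p = 0.00315) and that to R848 by 1.08 (SE 0.275, adjusted p = 0.0428). With P3C it grew by 0.82 without a call (adjusted p = 0.174), and no Rab gene was called for P3C in limma, with 4 at an unadjusted p under 0.05 and 2.92% of all genes called. The response of Rab19 to LPS grew by 0.43 (adjusted p = 0.0253), and that of Rab27a moved further down by 0.70 (SE 0.177, adjusted p = 0.0178). All of these except the growth of Rab3d with LPS (1.27 to 1.52) lost their call with some array left out. Rab3d with R848 (0.76 to 1.39) was called only on dropping R848 4 h array B, and Rab19 (0.29 to 0.56) only on dropping array A of untreated cells at 1 h or of LPS at 4 h. The call of Rab27a (−0.81 to −0.60) ended without untreated array A of 1 or 4 h, LPS 1 h array B or LPS 4 h array A. For Rab40c the difference between the 4 h and 1 h responses was not called with any ligand. In untreated cells no Rab gene was called between 4 and 1 h in limma, with none at an unadjusted p under 0.05 and 0.0696% of all genes called.

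Of 147 genes listed as regulators or effectors of Rab proteins, 94 were tested. With LPS at 4 h 4 rose and 17 fell, where 10.8% and 16% of all genes did. With P3C 2 rose and 5 fell (5.4% and 5.43% of all genes), and with R848 3 rose and 4 fell (6.3% and 6.38%). By role, 2 of 29 exchange factors rose and 6 fell with LPS at 4 h, and none of 26 GTPase-activating proteins rose and 6 fell. Of 34 effectors 2 rose and 4 fell, and 1 of 5 genes of lipid attachment and membrane cycling fell. These counts stand beside the same 10.8% and 16% of all genes, and no role was tested against that share. The median difference with LPS at 4 h was −0.07 over the list and −0.06 over all genes.

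The exchange factors moved both ways. Rabgef1, which encodes Rabex-5, the exchange factor of Rab5, read 10.10 and 10.46 with P3C at 1 h against 8.72 and 9.22, and rose by 1.31 (SE 0.246, adjusted p = 0.00579). With LPS and R848 at 1 h it rose by 1.05 and 1.19, and at 4 h it rose by 0.91 and 0.82. With P3C at 4 h the difference of 0.74 was not called (adjusted p = 0.0683). At 2 h the differences were 0.23, 0.25 and 0.22 with LPS, P3C and R848, none called. Dennd2c, of the DENN-domain exchange factors, fell in all 9 comparisons, most with LPS at 4 h, where it read 6.80 and 6.79 against 7.88 and 7.73, was detected on neither LPS array and was at least 1.86-fold lower, by the same bound as for Rab3a. Dennd4a, an exchange factor of Rab10, fell with all ligands at 4 h, by 0.65, 0.43 and 0.41. Dennd6b, of the exchange factors of Rab14, rose with LPS at 4 h, by 0.65.

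Several of the named effectors and GTPase-activating proteins act with Rab7 and Rab11. Plekhm1, a Rab7 effector of lysosome fusion, read 7.97 and 8.49 with LPS at 2 h against 9.70 and 9.52, and fell by 1.38 (SE 0.26, adjusted p = 0.00198). Tbc1d2, a GTPase-activating protein for Rab7, fell by 1.17 with LPS at the same time (SE 0.169, adjusted p = 0.000179), with 7.16 and 7.32 against 8.6 and 8.22. With P3C and R848 at 2 h Plekhm1 fell by 0.98 and 1.25 and Tbc1d2 by 0.84 and 0.99, all called. Rab11fip5, a Rab11 effector, fell with all ligands at 2 and 4 h, by 0.92, 0.93 and 0.91 at 4 h. Rilpl2, of the family of the Rab7 effector RILP, read 9.05 and 9.17 with LPS at 4 h against 7.91 and 7.94, and rose by 1.18, 1.05 and 1.06 with LPS, P3C and R848. Micall2, an effector of Rab8 and Rab13, rose at 2 and 4 h with all ligands from a level near background. At 2 h it was detected on neither untreated array (6.85 and 6.80) and was at least 1.79-, 1.59- and 1.84-fold higher with LPS, P3C and R848. At 4 h it was detected on 1 of the 2 untreated arrays (6.93 and 6.85), and read 8.04 and 7.90 with LPS. Tbc1d22a, a GTPase-activating protein, fell with LPS at 4 h by 0.57.

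**Figure D5:**
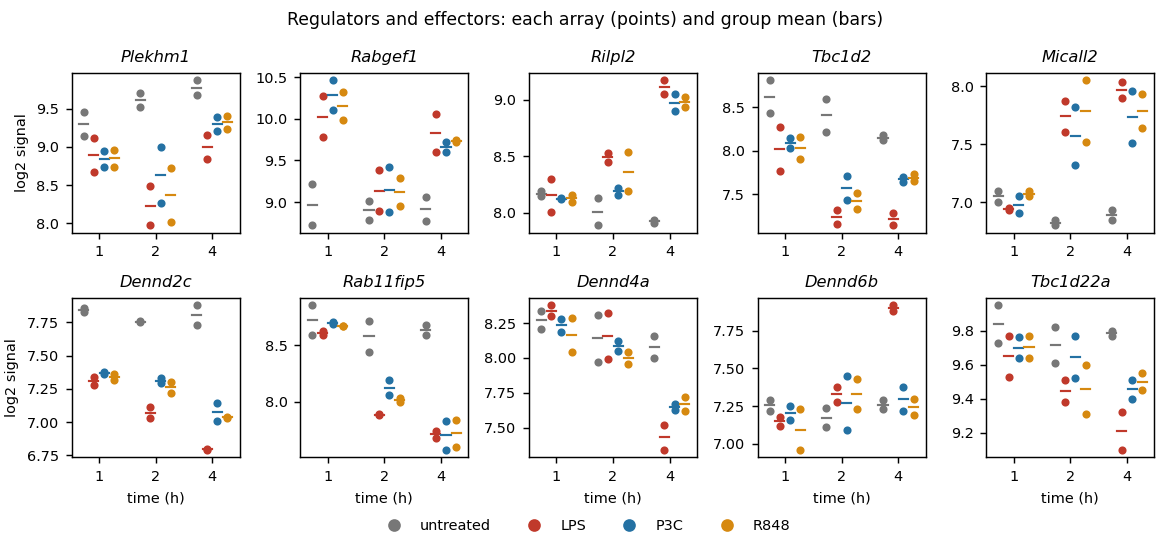
Log2 signal (y axis, a separate range in each panel) on every array for the 10 regulators and effectors of Rab proteins with the largest called differences, at 1, 2 and 4 h, with points for the 2 arrays of a group and a bar for their mean. Rabgef1 has its highest bars with the ligands at 1 h, where single arrays lie at 9.78 to 10.46, and Rilpl2 with the ligands at 4 h, where they lie at 8.90 to 9.17.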

How the data were processed

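The authors hybridised RNA of 24 cultures to Illumina BeadChip arrays. They deposited signal intensities that were not normalized for 45281 probes, each with its detection p-value. A second deposited table holds log2 values of 23937 probes, and 99.9993% of them differ by under 0.001 from the log2 signals after quantile normalization over the same probes. The submitters' processing notes name GenomeStudio 2011.1, and no genome build is given in the sources used here. All value columns belonged to samples of the series.

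Here log2 signals were quantile-normalized over all probes and arrays, and the background was not subtracted. A probe entered when its detection p was under 0.01 on the 2 arrays of some group (14119 probes). Probes were named through the platform table and RefSeq (534 symbols updated), and the brightest stood for its gene. All 24 arrays were fitted in limma 3.58.1 (R 4.3.3) with 1 mean per group, and p-values were adjusted by Benjamini and Hochberg over 8622 genes per comparison. The fit was run on simulated data with independent noise on each array and no effect of the slide. In the real data the consensus correlation within a slide was 0.602, so that run does not cover slides. The members, the lists of roles and regulators and the tests were chosen with earlier results of these data known. Rab genes called against untreated cells were named with full values, up to 14, and the others by the range of their differences. Of the regulators, the 10 with the largest called differences were named.

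Alternatives were normexp background correction with an offset of 16, median scaling, the authors' table, other detection filters, the mean of a gene's probes, pooled untreated arrays, fits without the groups not compared, the replicate or the slide as a block, and fits that dropped 1 array. Other probes and the untreated array of the same slide were added after seeing the data. Figures were drawn with matplotlib 3.10.9. Promoter sequences are RefSeq's.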

Additional observations from a re-analysis of the deposited data

Results flagged for a closer look

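Differences between ligands or times that passed a test of the difference itself were singled out. At 4 h Rab19 was higher with LPS than with P3C by 0.44 (log2, SE 0.0808, adjusted p = 0.00265 in limma) and than with R848 by 0.41 (adjusted p = 0.00528), and both LPS arrays lay above all 4 arrays of the other ligands. Rab3d was higher with LPS than with P3C by 0.83 (adjusted p = 0.0168) and Rab8b by 0.37 (adjusted p = 0.00842), again with no overlap of the arrays, while 4.08% of all genes were called higher in that comparison. These differences lost their calls under median scaling, and each lost its call without at least 1 of the 4 arrays compared. From 1 to 4 h the response to LPS grew by 0.43 for Rab19 (adjusted p = 0.0253) and by 1.40 for Rab3d (adjusted p = 0.00315), and that of Rab27a fell by 0.70 (adjusted p = 0.0178). The response of Rab3d to R848 grew by 1.08 (adjusted p = 0.0428), and this call ended without any 1 of 7 of the 8 arrays compared. That of Rab19 to LPS ended without any 1 of 6 and that of Rab27a without any 1 of 4 of the 8, while that of Rab3d to LPS held with any 1 array left out. Under median scaling the change of Rab27a (−1.0) kept its call, and those of Rab3d with LPS (0.86) and R848 (0.91) and of Rab19 (0.21) did not.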

How the results depend on the processing

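Of the 51 called differences of the 14 Rab genes between groups or between responses, none changed sign under any setting run. The authors' table and the replicate block kept all 51 calls. That table holds the same signals under the same kind of normalization, so its result was close to fixed in advance. The slide as a random block kept 50, normexp correction 44, a fit of only the arrays compared 31 and median scaling 13. The cause was not tested. Of the differences that were not called, the response to LPS from 1 to 4 h turned under median scaling to −0.04 for Rab21 (0.51 as reported) and to −0.33 for Rab8b.

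The counts of Rab genes called moved as follows. Median scaling gave 0 at 1 h for LPS, P3C and R848, then 1, 0 and 1 at 2 h and 8, 1 and 2 at 4 h, with 0 between ligands, 1 for the change of the LPS response and 0 for that of R848. Pooled untreated arrays gave 4 for each ligand at 1 h and 5 for R848 at 2 h. Only the arrays compared gave 1 for each ligand at 1 h, 2, 0 and 0 at 2 h, 1 for LPS against P3C, 0 for LPS against R848 and 0 for the R848 response. With the slide as a random block the count was 4 for R848 at 1 h, 13 for LPS against P3C, 12 for LPS against R848 and 2 for the R848 response. Normexp correction gave 2 for LPS against R848 and 0 for the R848 response, no detection filter 1 for P3C at 2 h, 2 and 0, detection on all 24 arrays 1 for R848 at 1 h and 0 for LPS against R848, and the mean of detected probes 2 for the latter.

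Regulators and effectors called at 4 h were 3 with P3C and 2 with R848 under median scaling, 4 and 4 with detection on all 24 arrays, and 14 with P3C against pooled untreated arrays.

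Leaving out 1 array gave 1 call for each ligand at 1 h, 3 to 5, 0 to 2 and 1 to 3 at 2 h for LPS, P3C and R848, and 10 to 13, 3 to 5 and 5 to 6 at 4 h. It gave 1 to 2 for LPS against P3C, 0 to 1 for LPS against R848, 1 to 2 for the LPS response and 0 to 1 for that of R848, and for regulators 11 to 17, 3 to 5 and 4 to 6 at 4 h. Without LPS 4 h array B, the difference of Rab19 at 4 h from untreated cells was 0.25, from P3C 0.31 and from R848 0.28.

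With the replicate block, 15 Rab genes were called with LPS at 4 h and 2 for the change of the R848 response, the 1 count it moved by over 1.5 times. The labels do not say that a letter marks a shared batch or day, although their running numbers list all A arrays before all B arrays. The differences between A and B correlated over genes at −0.647 to 0.847 between groups (median 0.223), and over 0.1 in 38 of 66 pairs of groups.

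The smallest called difference of a Rab gene from untreated cells was 0.32 in size. Of the called Rab genes, Rab3a and Rab19 lay near background in some groups. Uncalled ones did too. Rab1 was detected on both arrays in 1 of the 12 groups, Rab4a and Rab43 in 5, Rab22a in 6 and Rab6 in 8. Rab9 and Rab11a were detected in 10 groups and Rab13 in 11.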
